A study of Homo sapiens with 8 samples.

Results

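The tetraspanin mRNAs described here come from 10 human genes, TSPAN3, TSPAN4, TSPAN5, TSPAN9, TSPAN17, CD9, CD63, CD81, CD82 and CD151, out of 17310 protein-coding genes with a known strand. Every region of the deposited LARP6 eCLIP peak lists was taken whose midpoint lay within the GRCh38 bounds of a member gene, on the strand of that gene. This gave 116 and 81 regions in control replicates 1 and 2, and 64 and 89 in TGFβ1 replicates 1 and 2. These were drawn from 51273, 39880, 31137 and 54536 regions in all. The 2 lists that the authors made from both replicates of a condition held 5 member peaks each, of 627 peaks in control and 1008 in TGFβ1. The 10 genes were chosen by the log2 folds and p-values of these same lists, so the values below describe them and carry no test of their own.

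Human hepatic stellate cells of wild-type genotype, the liver cells that lay down scar matrix, were either given TGFβ1 at 5 ng/ml or left as controls, which the labels call both untreated and DMSO. Each condition had 2 libraries immunoprecipitated with an antibody to LARP6 and 2 size-matched input libraries, after crosslinking by ultraviolet light at 254 nm. The labels name no established line or donor for the cells. How long TGFβ1 was given and whether replicates were separate cultures were not stated in the sources used here, so the spread between replicates may be technical. The read depth is unknown, because the lists hold no counts.

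Tetraspanins are small proteins that cross the membrane several times and gather integrins, proteases and receptors into patches of the cell surface. They also mark extracellular vesicles, for which CD9, CD63 and CD81 are the usual markers. LARP6, of the La-related family, is best known for binding a stem-loop near the 5′ end of fibrillar collagen mRNAs. In eCLIP, RNA fragments crosslinked to the protein are sequenced beside an input of the same size range. A region is scored here by the authors' log2 fold over its input and by the authors' −log10 p-value of that comparison. Enriched here means that both of these values reached 3 or more.

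The members fell into those with a single site near the 3′ end of the gene and those with no enriched region. TSPAN4, TSPAN5 and TSPAN17 held enriched regions in all 4 libraries, and TSPAN3, TSPAN9, CD9, CD63, CD81, CD82 and CD151 held none in any library. In control replicate 1 this rests on the limits, since TSPAN17 would not count there at a log2 fold limit of 4, nor TSPAN5 at a −log10 p limit of 5, which would also take TSPAN5 out of the control list. Each library had 5 enriched member regions, 2 in TSPAN4, 2 in TSPAN5 and 1 in TSPAN17. They made up 4.31% and 6.17% of the member regions in control replicates 1 and 2 and 7.81% and 5.62% in TGFβ1 replicates 1 and 2. Of the regions in all protein-coding genes, 0.959%, 1.92%, 2.54% and 3.58% were enriched, in the same order. The same genes carried the 5 member peaks of each list from both replicates, and every peak of one list overlapped a peak of the other. As background, 3.02% and 5.13% of the protein-coding genes with a listed region had an enriched one in control replicates 1 and 2, and 6.62% and 11.6% in TGFβ1 replicates 1 and 2. The lists from both replicates named 3.94% of the genes with regions in both control libraries and 7.14% of those with regions in both TGFβ1 libraries. Nothing is read from the members' shares against these values, since the lists themselves guided the choice of genes.

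**Figure D1:**
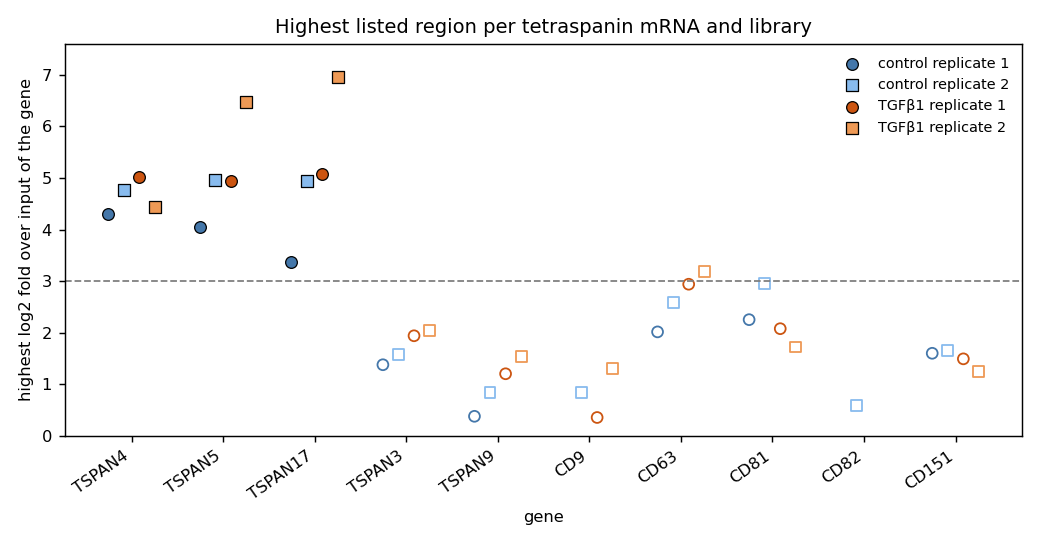
Highest log2 fold over input (vertical axis) among all listed regions of each gene (horizontal axis) in each of the 4 libraries; filled symbols mark genes with an enriched region in that library, open symbols genes without one, and the dashed line the fold limit of 3. A gene without a listed region has no symbol (CD9 in control replicate 1, and CD82 in all but control replicate 2). TSPAN4, TSPAN5 and TSPAN17 lie between 3.38 and 6.95, and the others at 3.18 or lower.

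TSPAN4, which is known from migrasomes, the membrane vesicles left behind by moving cells, had its site at the very end of the gene. The site spanned chr11:866901-867047 on the plus strand of GRCh38, from 210 to 64 nt before the annotated 3′ end of a gene of 24260 nt. Exons were not part of the annotation at hand, so whether the place is untranslated sequence is not stated. These bounds join the peaks of both lists. In single libraries the site began between 866900 and 866908 and ended between 867029 and 867047. Control replicate 1 had the earliest end and covered 130 nt. In all 4 libraries the site was listed as 2 abutting regions. The border between them lay after position 866961 in control replicate 2 and both TGFβ1 libraries, and after 866964 in control replicate 1. The upstream of these regions had log2 folds of 4.31 and 3.46 in control and 3.85 and 4.22 in TGFβ1. The downstream region had 4.14 and 4.77 in control and 5.01 and 4.44 in TGFβ1. The downstream region was thus the higher of the pair in 3 libraries and the lower in control replicate 1.

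Outside the site, TSPAN4 was covered widely but at low folds. It had 23 and 18 further regions in the control libraries and 8 in each TGFβ1 library. Their highest log2 folds were 2.38, 3.43, 2.79 and 2.72, in the order control replicates 1 and 2 and TGFβ1 replicates 1 and 2. The value of 3.43 belonged to a region 133 nt upstream of the site in control replicate 2. It passed the fold limit, but its −log10 p of 2.50 did not pass the limit of 3. No other library listed a region at that place. The 500 nt at the 5′ end of TSPAN4 held 1 or 2 regions per library, none above a log2 fold of 1.94.

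TSPAN5 and TSPAN17 both belong to the TspanC8 group of tetraspanins, which bind the membrane protease ADAM10 and steer its traffic and activity. The TSPAN5 site lay on the minus strand at chr4:98471317-98471455, between 950 and 1088 nt before the 3′ end of a gene of 188245 nt. It too was listed as 2 abutting regions in every library, with the border at 98471388, 98471389, 98471390 and 98471389 in the order given above. The region nearer the 3′ end had log2 folds of 4.04 and 4.96 in control and 4.94 and 6.48 in TGFβ1. Its neighbour had 3.25 and 3.82 in control and 4.62 and 6.12 in TGFβ1, and was the lower of the pair in all 4 libraries. The value of 3.25 in control replicate 1, with a −log10 p of 4.52, was the lowest fold of any enriched member region.

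The rest of the TSPAN5 gene stood far below its site. The 20 other regions of control replicate 1 had log2 folds from -1.21 to 1.12, and the 6 of control replicate 2 from -0.15 to 0.85. TGFβ1 replicate 1 listed 1 further region, at 1.94, and TGFβ1 replicate 2 listed 5, from 0.31 to 2.05. The 5′ end window of 500 nt reached -0.21 and 0.58 in control and 1.94 and 2.05 in TGFβ1. The site was therefore the only place of this long gene above a log2 fold of 3 in any library.

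TSPAN17 had the highest site of the family after TGFβ1, and it was a single region in each library. It spanned 176658824 to 176658910 on the plus strand of chromosome 5 in control replicate 1 and 176658823 to 176658910 in control replicate 2. In TGFβ1 replicates 1 and 2 it ran from 176658819 to 176658907 and from 176658820 to 176658906. The borders thus agreed to within 5 nt at either side, for a width of 87 to 89 nt. The joined site lay 232 to 141 nt before the 3′ end of a gene of 11568 nt. Its log2 folds were 3.38 and 4.93 in control and 5.08 and 6.95 in TGFβ1, with −log10 p-values of 5.14, 8.996, 9.29 and 37.3. Elsewhere the gene had 3, 3, 4 and 7 regions, the highest at 1.38, 1.58, 1.62 and 2.53.

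**Figure D2:**
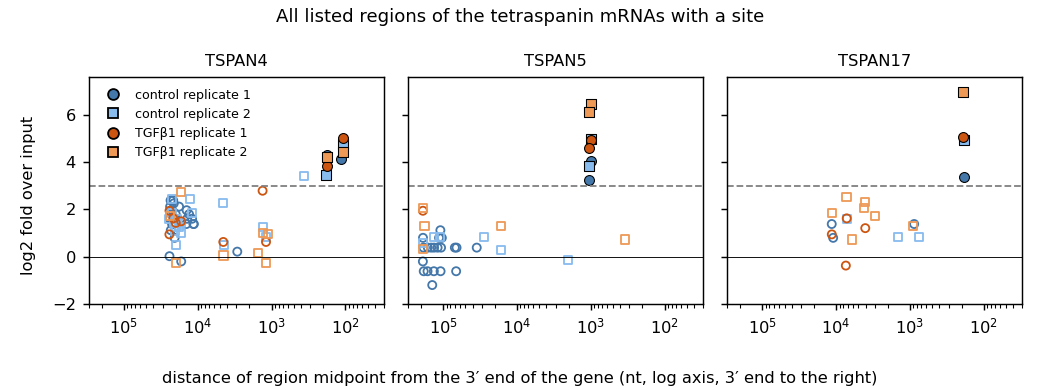
Log2 fold over input (vertical axis) of every listed region of TSPAN4, TSPAN5 and TSPAN17 against the distance of its midpoint from the 3′ end of the gene (horizontal log axis, in nt, 3′ end to the right); colours and symbols mark the 4 libraries, filled symbols enriched regions, and the dashed line the fold limit of 3. The enriched regions of all libraries stack at 1 place per gene, and nearly all other regions stay under 3, with 3.43 in TSPAN4 as the exception.

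All 3 sites thus lay towards the 3′ end, with their 5′ borders at 98.0%, 99.1% and 99.4% of the gene length in TSPAN17, TSPAN4 and TSPAN5. This length is that of the whole gene, introns included, so the share depends on gene size. In nt the TSPAN5 site lay the farthest from the 3′ end, and the place within the mRNA is not known here. By the midpoints of the listed peaks, all 3 sites had one within 1000 nt of the 3′ end. In TSPAN5 it was only the nearer of the pair, at 994 nt in the control list and 986 nt in the TGFβ1 list. Over all protein-coding genes, 114 of 556 sites in either list (20.5%) lay in that window. Another 57 sites (10.3%) had a peak within 500 nt of the 5′ end, where none of the tetraspanins had one. Of all listed regions in protein-coding genes, enriched or not, 9.42% lay in the 3′ window and 10.4% in the 5′ window. The member regions had 51 of 350 (14.6%) and 29 of 350 (8.29%) there. With 3 sites, no test of position was made. The sequences of the sites are not given, since no genome sequence of this build was used here.

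TGFβ1 was compared with control at these sites. The smallest two-sided p of an exact permutation test of 2 against 2 libraries is 0.333, so differences are given with their spread alone. TSPAN17 had 4.16 ± 1.10 in control and 6.01 ± 1.33 in TGFβ1 (log2 fold, SD, n = 2), a difference of 1.86. Both TGFβ1 libraries lay above both control libraries, although TGFβ1 replicate 1 exceeded control replicate 2 only by 5.08 to 4.93. TSPAN5 had 4.50 ± 0.65 and 5.71 ± 1.09, a difference of 1.21, and its groups overlapped, with control replicate 2 at 4.96 and TGFβ1 replicate 1 at 4.94. TSPAN4 had 4.54 ± 0.33 and 4.73 ± 0.40, a difference of 0.19 that is smaller than either SD. In TSPAN5 and TSPAN17 the highest value came from TGFβ1 replicate 2, and without that library the differences were 0.44 and 0.92. Without control replicate 1 they were 0.75 and 1.08, and without TGFβ1 replicate 1 they were 1.98 and 2.80. In TSPAN4 the difference was -0.04 without control replicate 1 and -0.10 without TGFβ1 replicate 1, so its direction rested on single libraries.

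Higher folds after TGFβ1 were common among the sites of the lists from both replicates. Of 542 sites of either list in protein-coding genes with a region in all 4 libraries, 50.4% had both TGFβ1 values above both control values and 5.90% had both below. The median difference over these sites was 0.95. A site entered through a peak in either list, and the TGFβ1 list was the larger, with 1008 peaks against 627. This background was thus itself selected on the folds compared, and what that adds to the shares was not tested. The tetraspanin sites were in both lists. The differences of TSPAN17 and TSPAN5 were larger than those of 84.1% and 61.3% of the sites, and that of TSPAN4 was larger than those of 22.3%. The libraries also differed in the centre of their folds. The median log2 fold over all regions was 0.38 and 0.85 in control and 0.94 and 0.82 in TGFβ1. With this median subtracted from each library, an alternative chosen after seeing the data, the differences were 1.59 in TSPAN17, 0.94 in TSPAN5 and -0.08 in TSPAN4, beside a median of 0.69 over the 542 sites. The TSPAN17 groups still did not overlap, as was true of 40.6% of all sites in that direction. Whether the abundance of these mRNAs changed with TGFβ1 was not measured apart from the input used in the fold.

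**Figure D3:**
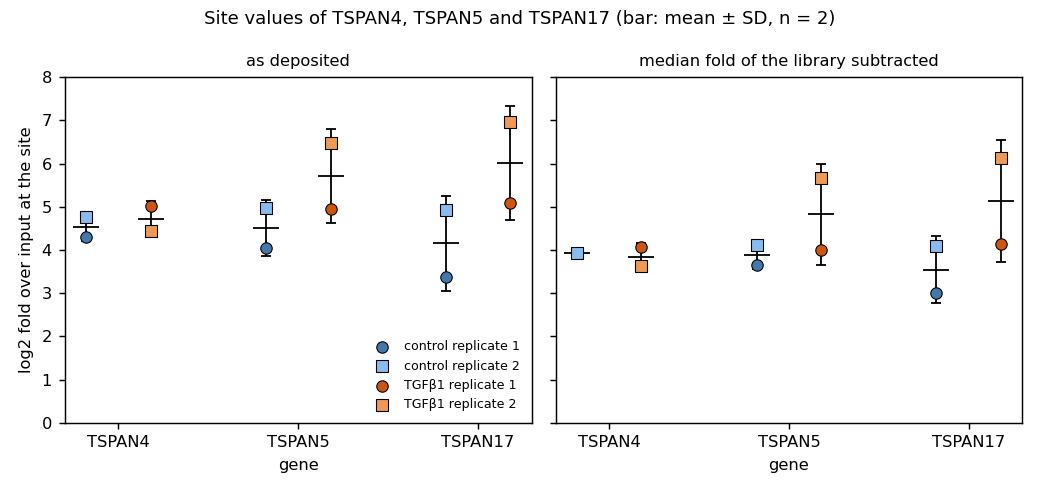
Log2 fold over input (vertical axis) at the sites of TSPAN4, TSPAN5 and TSPAN17 (horizontal axis), with 1 symbol per library and the mean ± SD of 2 libraries as a black bar; the left panel shows the deposited values and the right panel values after subtraction of the median fold of all regions of the library. TSPAN4 changes little between the conditions (0.19 and -0.08), and TGFβ1 replicate 2 is the highest library for TSPAN5 and TSPAN17 in both panels.

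Among the members without an enriched region, CD63 came closest to the limits. CD63 encodes a tetraspanin of late endosomes and lysosomes that is a common marker of exosomes. It had 9, 10, 9 and 11 regions in a gene of 6507 nt on the minus strand of chromosome 12. Its highest log2 folds were 2.02 and 2.58 in control and 2.94 and 3.18 in TGFβ1. The value of 3.18 belonged to a region of 2 nt with a −log10 p of 1.79, so the p limit was missed.

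CD63 had 6 places that all 4 libraries listed, of which the 2 with the highest mean folds are given here. At chr12:55727164-55727343 the log2 folds were 2.02, 1.91, 1.71 and 2.02, or 1.92 ± 0.14 (SD, n = 4). At chr12:55728274-55728355 they were 1.79, 2.58, 1.94 and 2.13. At the former place the highest −log10 p of any region was 2.25 and 3.11 in control and 3.54 and 11.1 in TGFβ1. All 9 regions that passed the p limit among the members without an enriched region were in CD63, 6 of them in TGFβ1 replicate 2, and their folds of 1.05 to 2.13 fell short of the fold limit. With a fold limit of 2, CD63 would count as enriched in TGFβ1 replicate 2 alone. The gene RDH5 and an antisense RNA overlap the ends of CD63, and 2 regions on the opposite strand within its bounds were left out.

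CD81 and CD151 were well covered and stayed low. CD81, a partner of CD9 in complexes with the immunoglobulin proteins IGSF8 and PTGFRN, had 25, 19, 13 and 18 regions on chromosome 11, the most of any member in the sum over the libraries. Their highest log2 folds were 2.25 and 2.96 in control and 2.08 and 1.72 in TGFβ1. At the place of the value of 2.96 (chr11:2377324-2377378) the TGFβ1 libraries had 2.08 and -0.28, and control replicate 1 had no region. Over its last 1000 nt CD81 did not exceed 0.30, 2.14, 1.62 and 1.16.

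CD151, which ties laminin-binding integrins to the tetraspanin network, had 14, 11, 13 and 17 regions in only 5880 nt. Their highest log2 folds were 1.60, 1.65, 1.49 and 1.25, with little spread between libraries. All 4 libraries listed 7 common places in CD151, the highest of them at 1.26 ± 0.12 (SD, n = 4, both conditions together). CD151 lies next to TSPAN4 on the same strand of chromosome 11, with 4.02 kb between them. The neighbours thus differed, with every library enriched in TSPAN4 and none in CD151.

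TSPAN3, TSPAN9, CD9 and CD82 had fewer or lower regions. TSPAN3, on chromosome 15, had 12, 6, 5 and 13 regions with highest log2 folds of 1.38, 1.58, 1.94 and 2.05, and none within 1000 nt of the 3′ end. TSPAN9, a tetraspanin known from platelets, had 5, 1, 3 and 2 regions in 209181 nt, the highest at 0.38, 0.85, 1.20 and 1.53. CD9 had no region in control replicate 1 and 1, 3 and 3 in the other libraries, up to 0.85, 0.36 and 1.31. CD82, also named KAI1 and known as a suppressor of metastasis, had a single region in the whole series, in control replicate 2, at 0.58. The TSPAN9 values of 0.38, 0.85 and 1.20 equal the commonest log2 fold of their libraries. For TSPAN9, CD9 and CD82 the coverage was thus too thin to say whether LARP6 was enriched on their mRNAs. In bulk libraries, fewer copies of an mRNA per cell and fewer cells that hold it cannot be told apart.

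**Figure D4:**
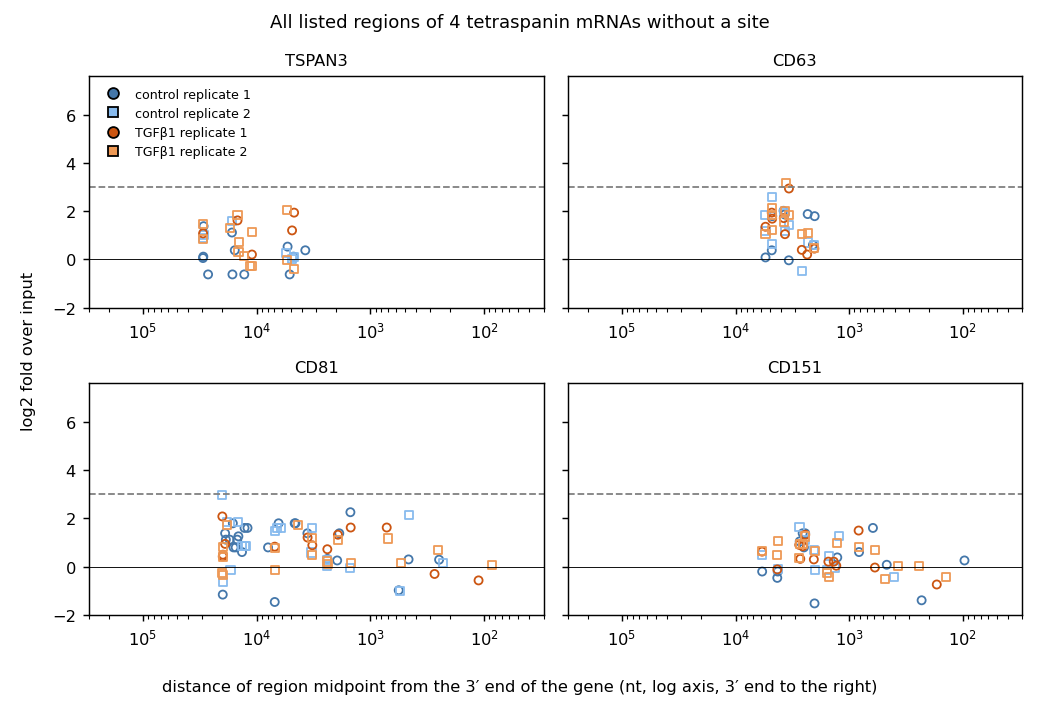
Log2 fold over input (vertical axis) of every listed region of TSPAN3, CD63, CD81 and CD151 against the distance of its midpoint from the 3′ end of the gene (horizontal log axis, in nt, 3′ end to the right), drawn as in the plot of the genes with a site. No region is enriched. A region of CD63 at 3.18 lies above the dashed line at 3 but missed the p limit.

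The number of listed regions alone did not separate the members. Over the 4 libraries CD81 had 75 regions, TSPAN4 65, CD151 55, TSPAN5 40, CD63 39, TSPAN3 36, TSPAN17 21, TSPAN9 11, CD9 7 and CD82 1. TSPAN17 thus had a site in both lists with fewer regions than 4 of the members without one. Among protein-coding genes with a region in all 4 libraries, 4.34% of 4221 had a peak in both lists. This share was 1.74% with 4 to 14 regions in total, 3.87% with 15 to 34, 6.60% with 35 to 69 and 11.6% with 70 or more. Of the 5 members with 35 to 69 regions, TSPAN4 and TSPAN5 had such a peak.

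Ranked by the highest fold per gene among these 4221 genes, TSPAN17 stood above 94.9% and 98.1% of them in control replicates 1 and 2. It stood above 97.9% and 99.0% in TGFβ1 replicates 1 and 2. TSPAN5 stood above 97.4% to 98.5%, and TSPAN4 above 97.8% to 98.1% in 3 libraries and 91.2% in TGFβ1 replicate 2. CD63 was above 75.4% to 85.3%. The thinly covered TSPAN9 was above 7.23% to 22.6%. CD81 and CD151 ranked lower in both TGFβ1 libraries, with 81.5% and 87.5% in control against 65.5% and 25.6% for CD81, and 63.3% and 56.5% against 38.2% and 11.0% for CD151. The median highest log2 fold of the 4221 genes was 1.12 and 1.58 in control and 1.62 and 2.23 in TGFβ1, so the ranks are set against a centre that differs by library. TSPAN3 stood above 53.7% and 45.3% in control and 55.5% and 39.5% in TGFβ1. All these ranks rest on the highest of several regions and rise with the number of regions per gene.

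**Figure D5:**
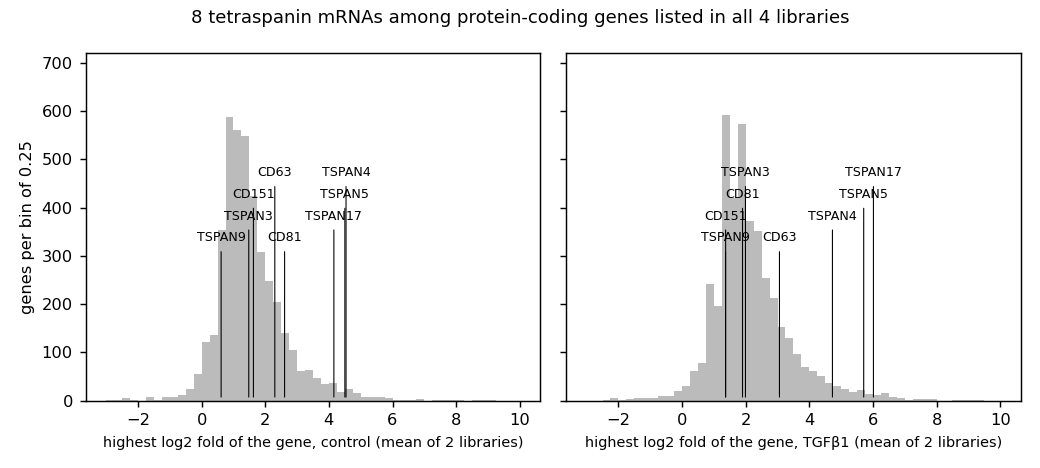
Number of protein-coding genes (vertical axis) by the highest log2 fold of the gene (horizontal axis, mean of 2 libraries, bins of 0.25), for 4221 genes with a region in all 4 libraries, in control (left) and TGFβ1 (right); lines mark the 8 tetraspanin mRNAs among them. TSPAN4, TSPAN5 and TSPAN17 lie in the upper tail in both conditions, and the other 5 lie within the main body.

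The rest of the family gave almost no regions. Of 23 other tetraspanin genes, 19 had no region in any library and none had an enriched one. The remaining 4, named here after their values were seen, were TSPAN2, TSPAN14, TSPAN31 and PRPH2, the retinal peripherin. They were listed in TGFβ1 libraries alone and reached log2 folds of 2.05, 1.31, 1.20 and 2.05. These genes were thus too thinly covered for a statement on LARP6.

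Partners of tetraspanins at the cell surface were looked at next, as a list of 20 genes written down with results of the series known. Of these, 15 had a region in some library. Peaks in the lists from both replicates fell in 2 in control and 3 in TGFβ1, beside the background of 3.94% and 7.14%. That background holds only genes with regions in both libraries of the condition. The partners were not cut to that set, so nothing is read from their counts. ITGB1, the integrin β1 chain, had 3 control and 6 TGFβ1 peaks, with highest log2 folds of 3.21 and 4.92 in control and 3.25 and 4.32 in TGFβ1. MMP14, a membrane-bound matrix protease, had 1 peak in each list. The highest log2 folds anywhere in MMP14 were 4.10 and 2.99 in control and 3.37 and 2.61 in TGFβ1, so that neither replicate 2 was enriched. SLC3A2, the heavy chain of CD98, had 2 peaks in the TGFβ1 list and none in the control list. Its highest log2 folds in the gene were 2.55 and 3.85 in control and 3.90 and 4.60 in TGFβ1. Control replicate 2 on its own had 1 enriched region in SLC3A2, as did TGFβ1 replicate 1.

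ADAM10, the protease that TSPAN5 and TSPAN17 bind, had no enriched region, with highest log2 folds of 2.12, 3.51, 2.43 and 2.31. It is named here as the partner of those members, outside the rule for named genes, and its value of 3.51 passed the fold limit but not the p limit. Of 21 genes of vesicle formation and of vesicle cargo, 20 had a region and none had a peak in either list. The background was 3.94% of genes in control and 7.14% in TGFβ1, so nothing is read from this count. Among the vesicle genes VPS4B, the ATPase that takes ESCRT filaments apart, had 2 enriched regions in TGFβ1 replicate 2, at up to 4.58. It too is named after its values were seen.

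Markers of the cell types were checked by whether they were listed at all. Of 15 hepatic stellate cell markers, 12 had regions in every library, and DES, RGS5 and LRAT had no region in any. COL1A1, COL1A2, COL3A1, TAGLN and THY1 were enriched in all 4 libraries. PDGFRB, PDGFRA, ACTA2, VIM, LUM, DCN and SPARC were listed without an enriched region. These names are given after their values were seen. None of 8 hepatocyte markers had a region. Of 5 cholangiocyte markers 2 to 3 had one per library, of 6 endothelial markers 0 to 1, and of 6 macrophage markers 1, all without an enriched region. The cholangiocyte markers summed to 2 and 5 regions in control and to 15 and 20 with TGFβ1, of which KRT7, a keratin, made up 1, 2, 13 and 17. SOX9 had 1, 1, 2 and 1 regions, CFTR had 2 in replicate 2 of each condition, and KRT19 and EPCAM had 0. Their part in the values of the tetraspanin mRNAs was not tested.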

How the data were processed

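The 4 immunoprecipitated libraries were used, each through its own deposited peak list, and so was 1 list per condition that the authors made from both replicates; the 4 input libraries enter through the fold. Per the submitters' processing notes, the tools were cutadapt for trimming, UMI-tools for molecular identifiers and STAR for alignment, with GRCh38 as the build. How regions were called, set against input and joined over replicates is not given in the sources used here. No list has a header. From its range, 1 deposited column was taken for the authors' log2 fold over size-matched input. The other deposited values were read as the authors' −log10 p, which stop at 400.

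Gene bounds came from RefSeq for GRCh38.p14 (59792 genes, all members matched). Strand came from the RefSeq promoter table, or for TSPAN3, TSPAN9, CD81 and CD151 from the majority of regions. Both sources gave the same strand for 98.8% of 5493 genes with at least 3 regions. In the background, a region in several genes counted for the shortest. Peaks were merged to sites where at most 20 nt apart, and the value of a site in a library was the highest fold of any region overlapping it by at least 1 nt. Coordinates are 1-based. Assignment and overlap were tested on simulated data.

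The members, lists and limits were chosen with earlier results of these data known. All 10 members are named. Of the other lists (other tetraspanins, partners, vesicle genes, integrins, caveolins and cavins), up to 6 genes with a peak in a list from both replicates are named, as are the 3 genes most like the highest member. Alternatives were other limits for fold, p, overlap and merging, each replicate left out, and the subtraction of the library median. Scripts ran in Python 3.11.15 with pandas 2.3.3, NumPy 2.4.6, SciPy 1.17.1 and, for plots, matplotlib 3.10.9.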

Additional observations from a re-analysis of the deposited data

How the results depend on the processing

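The 3 members with a peak in the lists from both replicates remained 3 in both conditions by a rule of overlapping enriched regions. With either replicate left out there were 3 to 3 members and 5 to 5 peaks in each condition. The deposited lists cannot be remade from a single replicate. These counts equal those of each library on its own, so they add nothing on the lists. With the limit for the log2 fold raised to 4, control replicates 1 and 2 had 3 enriched member regions each in place of 5, and the control list held 3 member peaks in place of 5. TSPAN17 then dropped out of control replicate 1, which left 2 members there. With the −log10 p limit raised to 5, control replicate 1 and the control list held 3 each, and TSPAN5 dropped out of both, which left 2 members in that library. Subtraction of the library median took the TSPAN4 site to 3.93 in control and 3.84 in TGFβ1. With replicates left out in turn, the TGFβ1 minus control difference ran from 0.92 to 2.80 in TSPAN17, from 0.44 to 1.98 in TSPAN5 and from -0.10 to 0.47 in TSPAN4, where its sign was not fixed. Of 96 alternatives in all, 89 stayed within the spread between replicates or within 1.5 times the count, and 7 moved. The direction of a called value changed in 0. The changes of sign of the TSPAN4 difference were counted among the 89. So was the drop from 3 to 2 members in control replicate 1.

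No paired analysis was possible because the labels do not state which samples form pairs, so no fit with a replicate block was made. The difference between libraries of the same number was 1.70 and 2.02 in TSPAN17, 0.90 and 1.52 in TSPAN5, and 0.70 and -0.33 in TSPAN4, but no label says that a shared number pairs the samples. The folds of small regions take few values. The commonest log2 fold, 0.38, was shared by 28.8% of the regions of control replicate 1, and in TGFβ1 replicate 2 the commonest, 1.31, was shared by 15.4%. The lists hold no counts, so the precision of a single fold cannot be given.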

Other observations

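The gene whose pattern over the 4 libraries was most like that of TSPAN17, the member with the highest listed fold, was TSPAN5. The mean absolute difference of the highest log2 fold was 0.33 over the 4 libraries, the smallest of 4220 genes compared. UHRF2, which encodes a ubiquitin ligase of chromatin, came next at 0.35, with 4.52, 4.93, 5.26 and 7.02. STAT3, a transcription factor of cytokine signalling, followed at 0.35, with 3.12, 4.39, 4.87 and 6.56. The highest region of UHRF2 lay 244 to 261 nt from the 3′ end of its gene and that of STAT3 949 to 995 nt from it, beside 184 to 188 nt for TSPAN17 and 985 to 994 nt for TSPAN5. UHRF2 had 1 peak in each list from both replicates, and STAT3 had 2 in the TGFβ1 list alone. The position was not part of the measure of likeness.

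Of 26 integrin genes, 11 had a region in some library, and ITGB1 was in both lists from both replicates while ITGAV and ITGA11 were in the TGFβ1 list alone. As background, 3.94% of genes with regions in both control libraries were in the control list. The TGFβ1 list named 7.14% of genes with regions in both TGFβ1 libraries. Both lists named 4.34% of genes with a region in all 4 libraries, and nothing is read from the integrin counts. The highest ITGAV regions had 2.44 and 3.96 in control and 4.41 and 5.38 in TGFβ1, and lay 39415 to 39447 nt before the end of the gene. Control replicate 2 on its own had 1 enriched region in ITGAV. Of 7 caveolin and cavin genes only CAVIN1, a coat protein of caveolae, had listed peaks, beside the same background. It had 4 peaks in control and 9 in TGFβ1. Its highest log2 folds were 6.69 and 6.33 in control and 6.79 and 7.11 in TGFβ1, at 1249 to 1279 nt from the 3′ end.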
